A study of Mus musculus with 12 samples.

Results

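The 10 enzyme genes described here make serine from a glycolytic intermediate and pass its carbon into the folate cycle. They are Phgdh, Psat1 and Psph of serine synthesis, the serine hydroxymethyltransferases Shmt1 and Shmt2, the cytosolic folate enzyme Mthfd1, and the mitochondrial folate enzymes Mthfd2, Mthfd2l, Mthfd1l and Aldh1l2. They were taken by symbol from the 55376 gene rows of a raw count table, and all 10 were among the 17716 genes that reached 1 CPM (reads counted, scaled by library size) in 4 or more of the 12 samples. The set was picked with the table in view, because Psat1 and Phgdh were lower in mutant cells while other stress genes were higher. The values of these genes against WT are therefore a description with no p-value of their own, and where counts of calls against WT are given for them, the outcome for Phgdh and Psat1 was part of the choice and nothing is read from it.

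Serine synthesis branches from glycolysis. PHGDH oxidizes 3-phosphoglycerate, PSAT1 transfers an amino group to the product, and PSPH removes the phosphate to give serine. The hydroxymethyltransferases then split serine into glycine and a carbon unit carried by tetrahydrofolate, SHMT1 in the cytosol and SHMT2 in mitochondria, and the MTHFD enzymes and ALDH1L2 oxidize that unit or release it as formate or carbon dioxide. Serine is also a building block of phosphatidylserine and of the sphingolipids of myelin, and in brain the synthesis enzymes are found in astrocytes and in other glia. Several of these genes, among them Phgdh, Psat1, Shmt2, Mthfd2 and Aldh1l2, are known targets of ATF4, the transcription factor of the integrated stress response.

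RNA was sequenced from O1+ oligodendrocytes sorted from brains of C57BL/6 mice at postnatal day 40, with 4 samples of each of 3 genotypes and 2 brains pooled in each sample. The genotypes were WT, Cnp-Cre Jab1fl/fl, in which Cre deletes floxed Jab1 (Cops5, a subunit of the COP9 signalosome), and Cnp-Cre Jab1fl/fl p21-/-, called the double mutant, which also lacked p21 (Cdkn1a, a cell cycle inhibitor) in every cell of the body. Cnp-Cre acts in late oligodendrocyte progenitors and in oligodendrocytes, so other cells of the brain kept Jab1. No group was p21-/- with intact Jab1, so the part of p21 loss alone cannot be told apart. No group carried Cnp-Cre with intact Jab1 either, so the part of the Cre allele, also in the level of Cnp, cannot be told apart from that of Jab1 loss. WT replicates carry the numbers 1, 3, 5 and 6, Cnp-Cre Jab1fl/fl replicates 1 to 4, and double mutant replicates 1, 2, 3 and 5, and values are given below in that order.

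Total counts ran from 61485556 to 153495112 per sample, so counting error was small beside the spread between samples. Cops5 had 46.3 to 133.5 CPM in WT, 44.9 to 89.0 CPM in Cnp-Cre Jab1fl/fl and 44.2 to 90.4 CPM in the double mutant, and the ranges overlapped. The table counts whole genes, so it does not show which exons were lost. Cdkn1a had 16.0 to 85.4 CPM in WT, 378.8 to 636.5 CPM in Cnp-Cre Jab1fl/fl and 64.7 to 103.3 CPM in the double mutant, where the gene was thus still counted. Which exons those reads come from was not tested. Cnp, the myelin enzyme gene whose locus drives Cre, had 4834 to 13311 CPM in WT, 227 to 1660 CPM in Cnp-Cre Jab1fl/fl and 845 to 2572 CPM in the double mutant. All 11 markers of oligodendrocytes and all 10 markers of astrocytes had counts in every sample. The summed CPM of the oligodendrocyte markers ranged from 45681 to 105600 in WT, from 8967 to 35143 in Cnp-Cre Jab1fl/fl and from 16861 to 52721 in the double mutant. Astrocyte markers summed to 5655 to 14103, 3695 to 8748 and 4151 to 11274 CPM, and microglia markers to 93.9 to 273 CPM, 1080 to 2669 CPM and 390 to 17749 CPM, in the same order of genotypes. Of the markers of other cells, 0 of 7 for neurons, 2 of 5 for mural cells and 1 of 6 for oligodendrocyte progenitors were called higher by edgeR in Cnp-Cre Jab1fl/fl against WT, and 3 of the neuron markers were higher at an unadjusted p below 0.05, beside 22.5% of all genes past that p in either direction. The sort took live CD45- O1+ cells, a gate meant to leave out microglia. The study reports that sorted O1+ cells were not fully pure on reanalysis, with no overt CD45+ cells. It does not fully exclude a small share of other cell types. Where the counts of other cells' markers came from was not tested. In bulk samples fewer cells of a type and less RNA per cell cannot be told apart.

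Phgdh and Psat1 were the members that stood lowest against WT, and the 250 bases before their start sites are shown so that they can be set beside those of Asns (asparagine synthetase) and Chac1 (a glutathione-degrading enzyme), 2 ATF4 targets whose mean level was higher in mutant cells. The sequences are from RefSeq on GRCm38.p6, read 5′ to 3′ on the strand of the gene. Phgdh is chr3:98339970-98340219 on the minus strand, Psat1 is chr19:15925060-15925309 on the minus strand and is the first of 2 start sites listed, Asns is chr6:7693210-7693459 on the minus strand, and Chac1 is chr2:119350992-119351241 on the plus strand. Capitals mark the CCAAT box, searched as CCAAT, in Phgdh and Psat1, and the C/EBP-ATF response element (CARE), searched as TGATGNAA, in Asns and, read on the other strand, in Chac1.
Phgdh: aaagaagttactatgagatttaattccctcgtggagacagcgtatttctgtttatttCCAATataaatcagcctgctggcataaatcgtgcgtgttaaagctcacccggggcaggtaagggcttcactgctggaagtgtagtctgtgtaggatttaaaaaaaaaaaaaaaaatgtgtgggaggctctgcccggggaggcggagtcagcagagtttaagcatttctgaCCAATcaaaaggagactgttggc
Psat1: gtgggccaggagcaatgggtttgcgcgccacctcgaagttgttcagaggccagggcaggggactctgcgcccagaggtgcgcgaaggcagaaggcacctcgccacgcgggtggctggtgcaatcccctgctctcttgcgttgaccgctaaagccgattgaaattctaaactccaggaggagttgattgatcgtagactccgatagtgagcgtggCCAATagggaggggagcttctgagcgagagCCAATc
Asns: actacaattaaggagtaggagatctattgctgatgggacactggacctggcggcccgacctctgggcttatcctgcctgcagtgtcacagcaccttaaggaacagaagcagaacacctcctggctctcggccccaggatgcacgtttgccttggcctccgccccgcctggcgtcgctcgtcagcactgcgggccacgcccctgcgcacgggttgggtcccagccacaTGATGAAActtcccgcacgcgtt
Chac1: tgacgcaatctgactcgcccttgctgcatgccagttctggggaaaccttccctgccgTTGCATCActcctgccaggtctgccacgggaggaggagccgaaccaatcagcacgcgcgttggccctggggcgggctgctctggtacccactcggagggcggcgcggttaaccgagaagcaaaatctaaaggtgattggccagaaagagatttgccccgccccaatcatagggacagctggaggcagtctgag
Both motifs were searched on both strands in windows of 300 bases, 250 before and 50 after the start. None of the 9 members with an entry held TGATGNAA, which occurred in 3.97% of the 32851 promoters in the RefSeq table and in 8 of the 19 integrated stress response genes with an entry. Among these 8 were Slc7a11 and Vldlr, whose means were below WT in both mutant genotypes. Atf3, Trib3, Asns, Chac1 and Nupr1, whose means were above WT, were also among them, so the element did not mark only genes that were higher. CCAAT was present in 6 of the 9 members, in 12 of the 19 integrated stress response genes and in 37.4% of all promoters. Chac1 held 3 copies, which are not marked in its sequence above. Psat1 held 3 copies, starting at positions -36, -6 and +24 from the start site, and 3 or more copies were found in 3.37% of all promoters. In Phgdh the copies started at -193 and -23. No match says only that these letters are not in this window, and a match is not shown to be a binding site.

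Phgdh, which catalyses the first step of serine synthesis (chr3:98313170-98339990, minus strand, GRCm38), had 501.6, 436.4, 805.9 and 386.3 CPM in WT. In Cnp-Cre Jab1fl/fl cells it had 159.1, 301.1, 151.8 and 103.2 CPM, and in double mutant cells 332.1, 265.1, 315.2 and 224.7 CPM. Every mutant sample of either genotype lay below the lowest WT sample, while the 2 mutant genotypes overlapped. Mean levels were 532.5 ± 188, 178.8 ± 85.2 and 284.3 ± 48.8 CPM (SD, n = 4 each). Fitted log2 fold changes were -1.57 (SE 0.39) in Cnp-Cre Jab1fl/fl and -0.92 (SE 0.32) in the double mutant as compared with WT. Processed pseudogene copies of Phgdh are annotated in the genome, but the 8 that share most sequence with it together had counts of at most 2.41% of those of Phgdh in any sample.

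Psat1, the aminotransferase of the second step (chr19:15904678-15947337, minus strand), had 473.2, 353.4, 859.3 and 416.7 CPM in WT. Its levels were 122.0, 228.8, 96.9 and 76.5 CPM in Cnp-Cre Jab1fl/fl cells and 321.8, 191.5, 203.6 and 182.0 CPM in double mutant cells. Again no mutant sample reached the lowest WT sample, and the double mutant sample with the highest value, replicate 1, came within 31.6 CPM of it. Means were 525.6 ± 228, 131.0 ± 67.8 and 224.7 ± 65.3 CPM (SD, n = 4 each). The fitted log2 fold change was -2.00 (SE 0.42) in Cnp-Cre Jab1fl/fl and -1.24 (SE 0.36) in the double mutant, somewhat larger in size than those of Phgdh in both. The ratio of Psat1 to Phgdh CPM within a sample ranged from 0.81 to 1.08 over the WT samples, from 0.64 to 0.77 over those of Cnp-Cre Jab1fl/fl and from 0.65 to 0.97 over those of the double mutant.

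Psph, the phosphatase of the last step (chr5:129765558-129787449, minus strand), did not separate the genotypes. It had 86.4, 25.1, 82.6 and 67.4 CPM in WT, 27.8, 48.4, 49.0 and 9.9 CPM in Cnp-Cre Jab1fl/fl cells, and 44.8, 28.9, 68.2 and 54.9 CPM in double mutant cells. WT replicate 3 was the second lowest of all 12 samples for Psph. It was also the lowest WT sample for Psat1, but for Phgdh and Psat1 it was above every mutant sample. The fitted log2 fold changes were -0.95 (SE 0.51) and -0.42 (SE 0.41). Psph overlaps Cct6a on the other strand, and the kit does not mark strand, so reads from the shared exon sequence cannot be assigned to either gene with certainty.

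**Figure D1:**
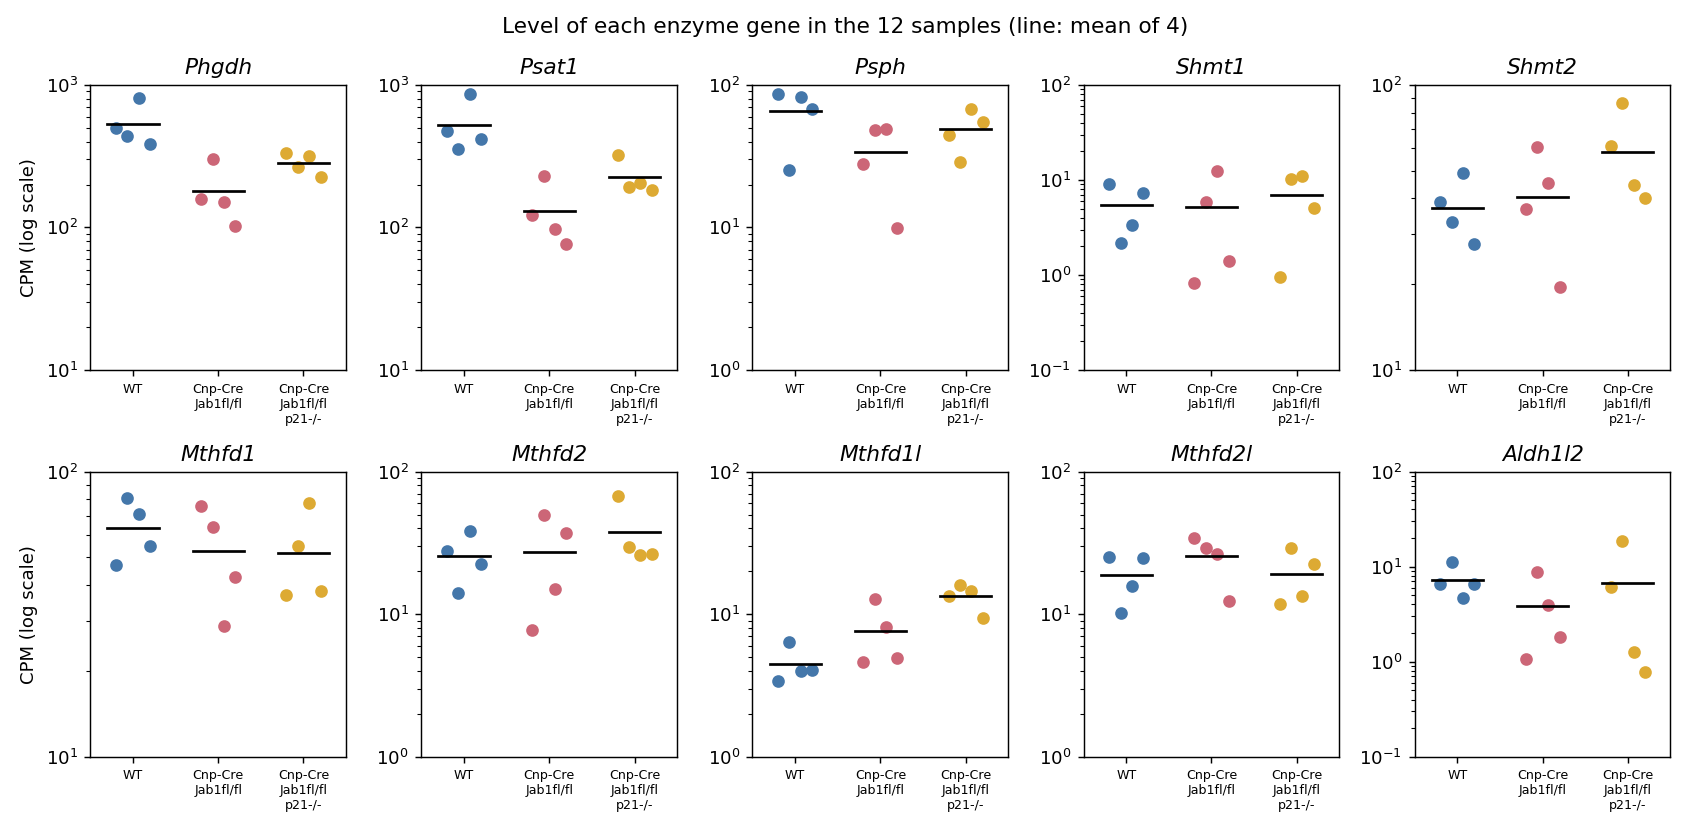
Each panel plots the CPM (log scale) of 1 enzyme gene in the 12 samples, grouped by genotype, with the black line at the mean of 4 samples. Phgdh and Psat1 of both mutant genotypes lie below every WT sample, Mthfd1l of the double mutant lies above every WT sample, and in the other panels the groups overlap with WT.

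When Cnp-Cre Jab1fl/fl cells were compared with WT cells, the enzymes that edgeR called were the 2 that the choice rested on, Phgdh and Psat1, both lower, so the count is no test. Over all 17716 genes tested, 7.64% were called in this comparison, 2.46% lower and 5.19% higher, at an adjusted p below 0.05. The groups did not overlap for 7.26% of all genes on the lower side and for 9.88% on the higher side, against 2 and 0 of the enzymes. Neither enzyme was called without Cnp-Cre Jab1fl/fl replicate 1, without replicate 3, or with the microglia marker score of each sample as a covariate. That score was 1.87 to 3.30 in WT and 5.83 to 6.89 in Cnp-Cre Jab1fl/fl. A fit with it therefore cannot tell the score apart from genotype, and nothing is read from the lost calls. Without WT replicate 1, WT replicate 5, Cnp-Cre Jab1fl/fl replicate 4 or the filter on low counts, 1 enzyme was called in each case. The log2 fold changes themselves stayed between -1.96 and -1.30 for Phgdh and between -2.43 and -1.66 for Psat1 over 17 alternatives. The median log2 fold change was -0.18 over the 10 enzymes and 0.024 over all genes.

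Of the oligodendrocyte markers, 10 of 11 had a fold change below 0 and 7 of 11 were called lower in Cnp-Cre Jab1fl/fl (median log2 fold change -2.26). Whether Phgdh and Psat1 followed these markers from sample to sample was not tested. Per 1000 summed CPM of those markers, Psat1 stood at 7.74 to 9.12 CPM in WT, 3.65 to 10.8 CPM in Cnp-Cre Jab1fl/fl and 6.10 to 10.8 CPM in the double mutant. Phgdh stood at 7.63 to 9.67, 4.77 to 16.9 and 6.30 to 13.3 CPM on the same scale. So scaled, the genotypes overlapped for both genes. Mbp, a main myelin protein gene, was the marker that was not lower, and made up 17.3% of the marker sum in WT and 54.3% in Cnp-Cre Jab1fl/fl. With Mbp left out, mean Psat1 per 1000 CPM of markers was 10.3 ± 0.996 in WT and 15.1 ± 8.14 in Cnp-Cre Jab1fl/fl, so that the order of the means turned, and the ranges still overlapped. Mean Phgdh on that scale was 10.7 ± 1.26 in WT, 21.5 ± 13.5 in Cnp-Cre Jab1fl/fl and 17.7 ± 6.96 in the double mutant, with ranges that overlapped as well. Astrocyte markers had a median log2 fold change of -0.48 with 0 of 10 called by edgeR (2 lower and 1 higher at an unadjusted p below 0.05), and all 15 microglia markers were called higher. The part of these cells in the levels of Phgdh and Psat1 was not tested.

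**Figure D2:**
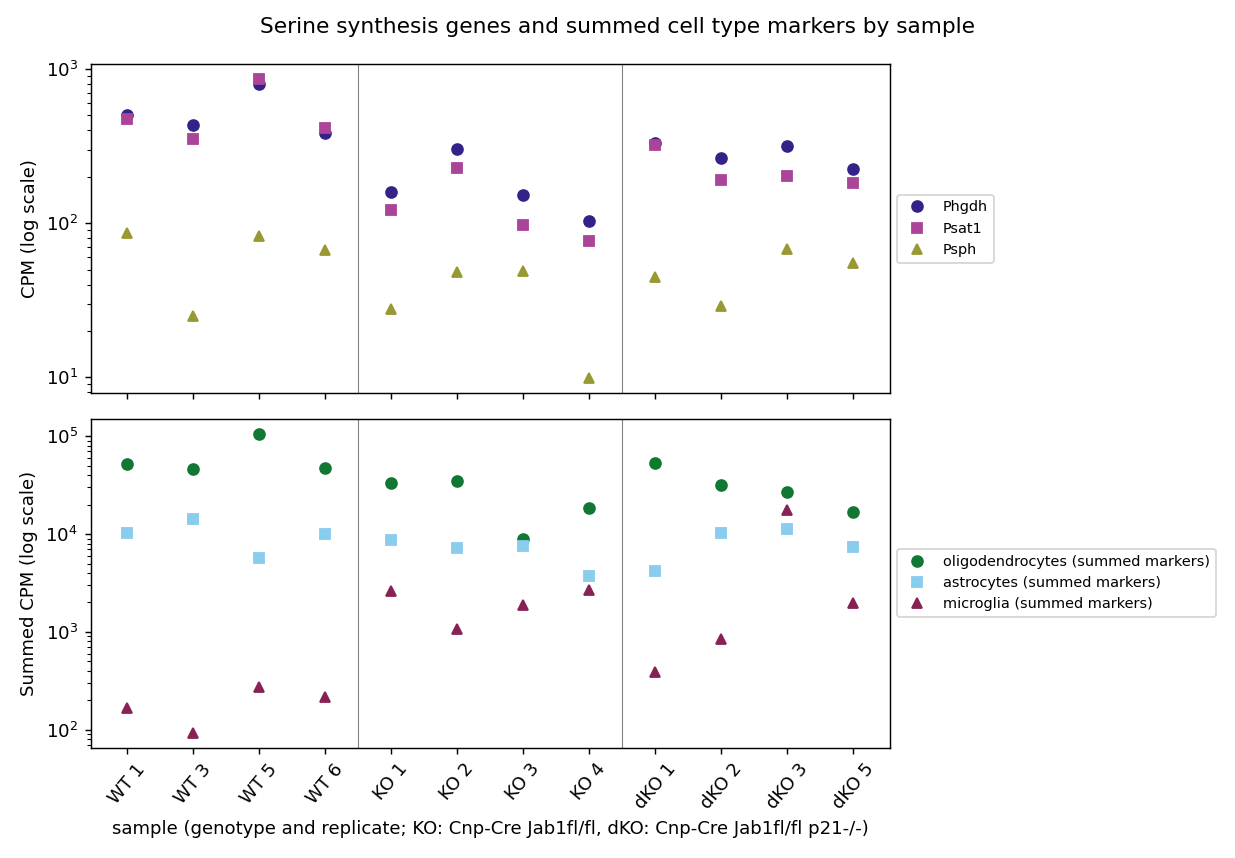
The upper panel plots CPM of Phgdh, Psat1 and Psph, and the lower panel the summed CPM of oligodendrocyte, astrocyte and microglia markers, both on log scales, in each sample (KO is Cnp-Cre Jab1fl/fl, dKO the double mutant). WT replicate 5 is highest for Psat1, Phgdh and oligodendrocyte markers (105600 CPM), and double mutant replicate 3 stands out for microglia markers (17749 CPM).

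The 2 hydroxymethyltransferases overlapped between all genotypes. Shmt2, the mitochondrial form (chr10:127517123-127522444, minus strand), had 38.8, 33.0, 49.0 and 27.7 CPM in WT, 36.7, 60.7, 45.4 and 19.5 CPM in Cnp-Cre Jab1fl/fl, and 61.3, 86.1, 44.5 and 40.0 CPM in the double mutant. Double mutant replicates 1 and 2 were above every WT sample and the other two were within the WT range. Fitted log2 fold changes were 0.13 (SE 0.37) and 0.63 (SE 0.33) against WT. Shmt1, the cytosolic form (chr11:60788104-60811718, minus strand), was low and scattered, at 2.2 to 9.2 CPM in WT, 0.8 to 12.5 CPM in Cnp-Cre Jab1fl/fl and 1.0 to 11.1 CPM in the double mutant. The standard error of its log2 fold changes, 0.89 and 0.78, exceeded the changes of -0.09 and 0.31, so a difference of moderate size was not detectable in these samples.

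Mthfd1, the cytosolic enzyme that joins 3 steps of folate conversion in 1 protein (chr12:76255298-76319803, plus strand), had 47.0, 80.8, 71.1 and 55.0 CPM in WT, 76.0, 64.1, 28.8 and 42.5 CPM in Cnp-Cre Jab1fl/fl, and 37.0, 54.7, 77.9 and 38.1 CPM in the double mutant. Both mutant groups reached below the lowest WT sample with 2 samples each, and the log2 fold changes were -0.26 (SE 0.35) and -0.30 (SE 0.33).

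Of the mitochondrial folate enzymes, Mthfd1l was the one whose double mutant samples did not overlap with WT. MTHFD1L releases formate from mitochondria (chr10:3973118-4167081, plus strand). Its gene had 3.4, 6.4, 4.0 and 4.0 CPM in WT, 4.6, 12.8, 8.2 and 4.9 CPM in Cnp-Cre Jab1fl/fl, and 13.5, 15.9, 14.6 and 9.4 CPM in the double mutant. The lowest double mutant sample was above the highest WT sample, and Cnp-Cre Jab1fl/fl samples spread over both. The log2 fold change against WT was 1.57 (SE 0.46) in the double mutant, 1.40 to 1.87 over 16 alternatives, and 0.77 (SE 0.59) in Cnp-Cre Jab1fl/fl. With 362 to 2012 counts per sample the gene is low but well above single counts.

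Mthfd2, a dehydrogenase and cyclohydrolase that is usually low in adult tissue (chr6:83305691-83325908, minus strand), had 27.8, 14.2, 38.6 and 22.5 CPM in WT and 7.7, 49.6, 14.9 and 37.1 CPM in Cnp-Cre Jab1fl/fl. In the double mutant replicate 1 had 67.8 CPM and the others 29.5, 26.0 and 26.5 CPM, within the WT range. Its related enzyme gene Mthfd2l (chr5:90931117-91021368, plus strand) had 10.1 to 25.3 CPM in WT, 12.5 to 34.3 CPM in Cnp-Cre Jab1fl/fl and 11.9 to 29.1 CPM in the double mutant. Aldh1l2, which oxidizes formyl-tetrahydrofolate to carbon dioxide in mitochondria (chr10:83487450-83534140, minus strand), had 6.6, 11.1, 4.6 and 6.5 CPM in WT, 1.1, 8.8, 3.9 and 1.8 CPM in Cnp-Cre Jab1fl/fl, and 6.2, 18.5, 1.3 and 0.8 CPM in the double mutant. The double mutant values of Aldh1l2 thus covered both the highest and the lowest of the 12. Aldh1l2 shares 13.2% of its 50-base windows with D10Wsu102e on the other strand, and its low counts are uncertain for that reason.

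Against WT, the double mutant had 0 of the 10 enzymes called by edgeR, beside 0.192% of all genes. At an unadjusted p below 0.05 there were 3 enzymes, Phgdh, Psat1 and Mthfd1l, beside 12.4% of all genes, and DESeq2 called 2, Psat1 and Mthfd1l, beside 4.87% of all genes. For Phgdh and Psat1 these counts rest on the values that chose them. Groups that did not overlap were found for 3.58% of all genes on the lower side and for 4.52% on the higher side, against 2 and 1 of the enzymes. The comparisons of both mutant genotypes with WT share the 4 WT samples. In the double mutant 10 of 11 oligodendrocyte markers had a log2 fold change below 0 (median -1.33) and 15 of 15 microglia markers had one above 0. Without double mutant replicate 3, which had by far the most microglia marker counts, the log2 fold changes were -1.18 for Psat1, -0.96 for Phgdh and 1.55 for Mthfd1l, close to those with it.

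**Figure D3:**
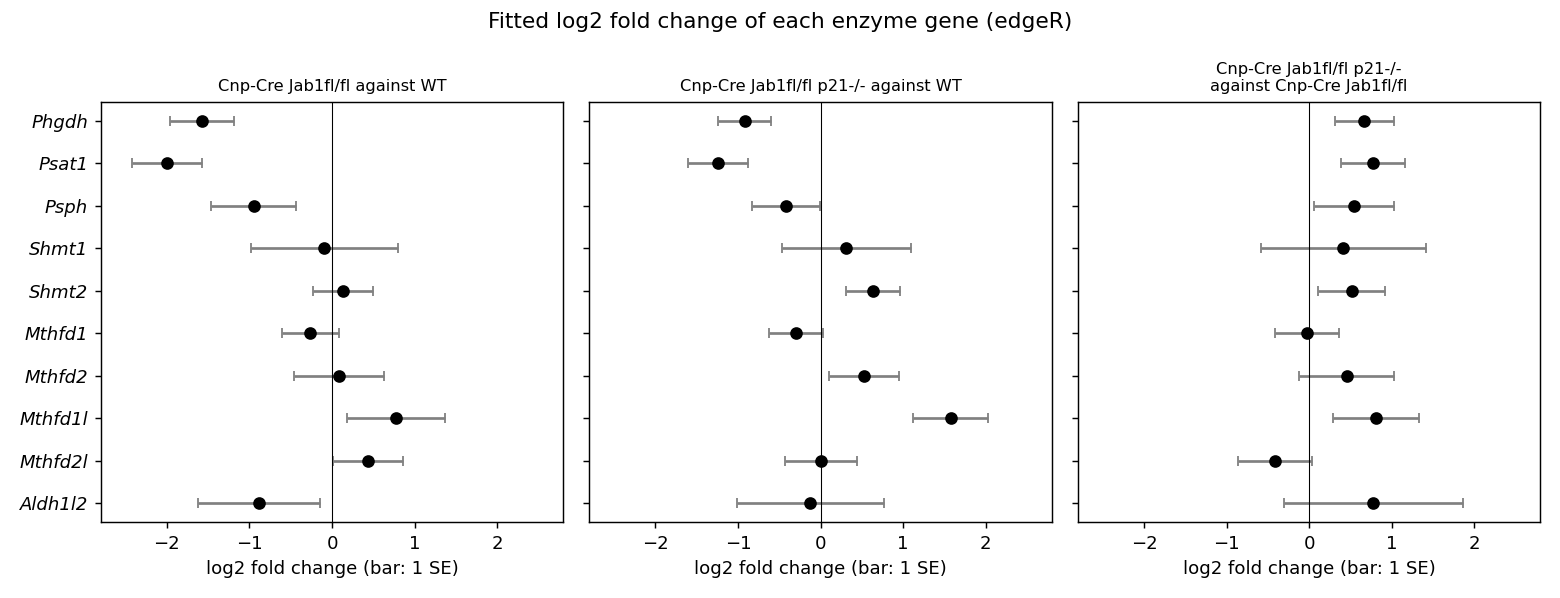
Points are the edgeR log2 fold changes of the 10 enzyme genes in the 3 comparisons, with bars of 1 SE. Psat1 and Phgdh are the lowest against WT (-2.00 and -1.57 in Cnp-Cre Jab1fl/fl), and between the 2 mutant genotypes 8 of 10 points lie above 0 with none called.

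The double mutant was compared with Cnp-Cre Jab1fl/fl to ask whether the enzymes differed when p21 was also absent. None of the 10 was called by edgeR, none had an unadjusted p below 0.05, and neither DESeq2 nor limma-voom called any. In this comparison 0% of all genes were called, with 885 genes (5%) at an unadjusted p below 0.05 and 87 (0.491%) called by DESeq2. Groups did not overlap for 3.22% of all genes in either direction and for 0 of the enzymes. The fold change of 8 enzymes was above 0, and the median was 0.53 over the 10 and 0.021 over all genes. Markers of oligodendrocytes were above 0 in 10 of 11 (median 0.86), those of astrocytes in 10 of 10 (median 0.29) and those of microglia in 12 of 15. Endothelial markers were below 0 in 7 of 7. The log2 difference was 0.67 (SE 0.36) for Phgdh, with an edgeR adjusted p of 0.992, and 0.78 (SE 0.39) for Psat1, with an edgeR adjusted p of 0.975. Since the low Cnp-Cre Jab1fl/fl values of Phgdh and Psat1 had been part of the choice of genes, their higher mean in the double mutant is not an independent measurement. For Mthfd1l the log2 difference was 0.81 (SE 0.52), for Psph 0.54 (SE 0.49), for Shmt2 0.51 (SE 0.40) and for Mthfd2 0.45 (SE 0.58). Without double mutant replicate 1 the difference of Mthfd2 was -0.0014.

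Compared per kilobase of exon, serine synthesis genes had the highest means of the set in every genotype. In WT, Phgdh had 281.3 ± 99.4 CPM per kb, Psat1 179 ± 77.6 and Psph 37.7 ± 16.2 (SD, n = 4 each). Next came Mthfd1 with 19.6 ± 4.72, Shmt2 with 16.1 ± 3.96, Mthfd2 with 12.4 ± 4.90 and Mthfd2l with 7.05 ± 2.72 CPM per kb. Shmt1, Aldh1l2 and Mthfd1l were lowest, at 1.93 ± 1.15, 1.18 ± 0.449 and 1.04 ± 0.314 CPM per kb. Neighbours in this order overlapped in their WT ranges, apart from Psat1 against Psph and Mthfd2l against Shmt1. In Cnp-Cre Jab1fl/fl the same 3 genes led, with Phgdh at 94.5 ± 45.0, Psat1 at 44.6 ± 23.1 and Psph at 19.5 ± 10.8 CPM per kb, and there the ranges of Psat1 and Psph overlapped, with 26.1 the lowest Psat1 value and 28.3 the highest Psph value. Psph and Shmt2, next in order, overlapped in both mutant genotypes. Their means were 19.5 and 17.6 CPM per kb in Cnp-Cre Jab1fl/fl and 28.4 and 25.2 CPM per kb in the double mutant. Mthfd1l moved from the tenth place in WT to the eighth in the double mutant, at 3.13 ± 0.657 CPM per kb.

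**Figure D4:**
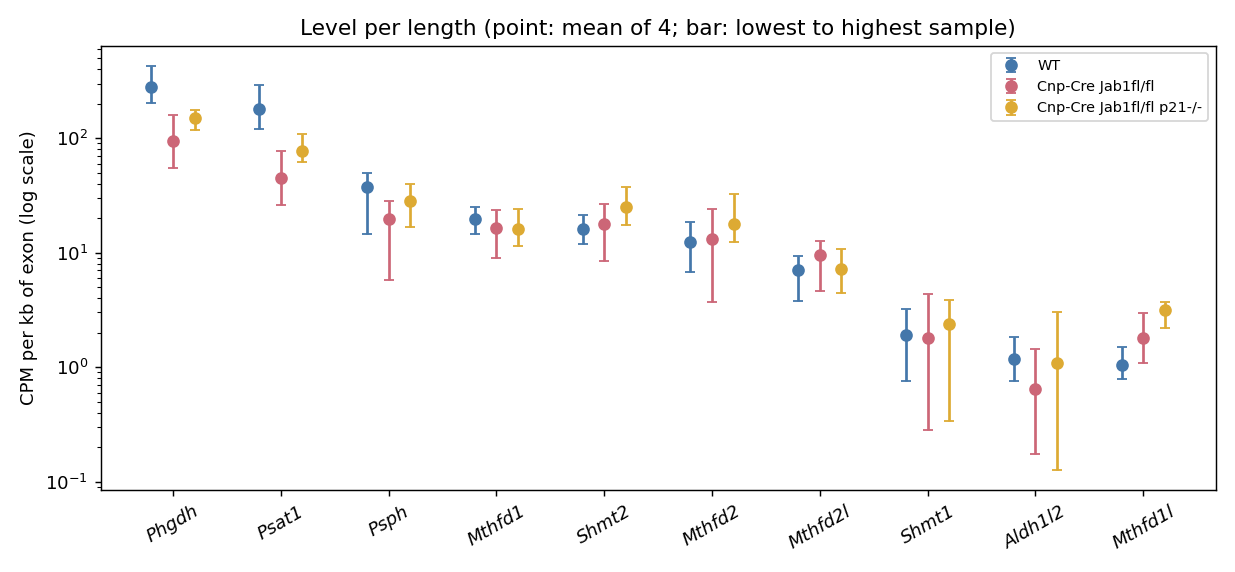
Points are mean CPM per kb of exon (log scale) of each enzyme gene in 4 samples of each genotype, and bars run from the lowest to the highest sample. Phgdh and Psat1 lead in each genotype, 281.3 and 179 CPM per kb in WT, and the step down to Psph is smaller in the mutant genotypes.

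Across the 12 samples the pattern of Psat1 was most like that of Phgdh, with a Pearson r of 0.982 on log2(CPM + 1), which ranked first of all genes tested for either of them. The samples fall into genotypes with different levels, so these r values describe a shared order of samples and carry no test. Psph followed less closely, with r of 0.663 to Psat1 and 0.692 to Phgdh, and the other 7 enzymes had r from -0.27 to 0.45. The 5 other genes most like Psat1 were Tspan15 (r 0.981), a tetraspanin, Cers2 (0.974), which makes the very long chain ceramides of myelin lipids, Gamt (0.972), the methyltransferase that completes creatine, Gm7901 (0.965) and Gpm6b (0.960), a membrane protein related to the myelin protein PLP. For Phgdh they were Gm7901 (0.977), Tspan15 (0.967), Serinc1 (0.960), Cers2 (0.957) and Slco3a1 (0.955), an organic anion carrier. Gm7901 is a processed pseudogene that shares 38.3% of the 50-base windows of Phgdh, so its reads may come from Phgdh itself. Mean Cers2 was 1200 CPM in WT, 257.7 CPM in Cnp-Cre Jab1fl/fl and 493.5 CPM in the double mutant, and mean Gamt was 249.3, 55.3 and 100.7 CPM. Mean Serinc1, which helps to place serine in membrane lipids, was 640.0, 314.0 and 431.2 CPM.

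The wider pathway was followed in 57 genes of 6 lists, of which 53 passed the filter. For Cnp-Cre Jab1fl/fl cells, 2 were called lower than in WT and 1 higher, beside 7.64% of all genes, and the median log2 fold change was 0.01. Both genes called lower belonged to the enzymes and cofactors that put serine into lipids, of which 9 passed. Of these 9, 5 had a log2 fold change below 0 and 4 above. Ptdss1, which makes phosphatidylserine, had 105.7 to 147.1 CPM in WT and 27.5 to 69.0 CPM in Cnp-Cre Jab1fl/fl, with no overlap (log2 fold change -1.43, SE 0.35, edgeR adjusted p = 0.0306). Serinc5 had 86.2 to 373.7 CPM in WT and 31.7 to 67.5 CPM in Cnp-Cre Jab1fl/fl, again with no overlap (log2 fold change -1.98, SE 0.48, edgeR adjusted p = 0.0310). The call of Ptdss1 was lost in 6 of 8 fits that left out 1 sample, namely any WT sample or Cnp-Cre Jab1fl/fl replicate 3 or 4. That of Serinc5 was lost in 5 of 8, namely WT replicate 3 or 5 or Cnp-Cre Jab1fl/fl replicate 1, 3 or 4. Neither was called with the microglia marker score as a covariate, a score that did not overlap between these genotypes. Oligodendrocyte markers had a median log2 fold change of -2.26 in this comparison. The part of those cells in the levels of Ptdss1 and Serinc5 was not tested.

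Among the 9 serine carriers, Slc38a5 was called higher. It carries neutral amino acids, serine among them, and had 15.8, 7.6, 6.6 and 14.5 CPM in WT against 89.7, 7.7, 36.7 and 171.9 CPM in Cnp-Cre Jab1fl/fl (log2 fold change 2.78, SE 0.74, edgeR adjusted p = 0.0446). Cnp-Cre Jab1fl/fl replicate 2 was within the WT range. The call was lost in 7 of 8 fits that left out 1 sample, all but the fit without that replicate, and also without the filter on low counts and with the microglia marker score. Slc38a5 is also a gene of endothelial cells, and endothelial markers, summed, had 219 to 462 CPM in WT and 542 to 3717 CPM in Cnp-Cre Jab1fl/fl, with 4 of 7 called higher. Their part in the level of Slc38a5 was not tested.

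No gene of the 4 other lists was called by edgeR in Cnp-Cre Jab1fl/fl. Among 10 genes of glycine and serine breakdown, 2 had an unadjusted p below 0.05, a share near the 22.5% of all genes. Sardh, the mitochondrial sarcosine dehydrogenase, had 14.9 to 30.5 CPM in WT and 7.2 to 12.7 CPM in Cnp-Cre Jab1fl/fl (log2 fold change -1.17, SE 0.39, edgeR adjusted p = 0.10), and Gldc, the decarboxylase of the glycine cleavage system, had 22.1 to 110.7 CPM and 7.05 to 21.95 CPM (log2 fold change -1.58, SE 0.54, edgeR adjusted p = 0.108). For Gldc the highest Cnp-Cre Jab1fl/fl sample and the lowest WT sample nearly met. In the folate cycle, where 12 genes passed, the smallest p-values were those of Aldh1l1, a cytosolic folate enzyme best known as an astrocyte marker (log2 fold change -0.98, SE 0.42, edgeR adjusted p = 0.196), and of Gart, a purine synthesis enzyme (log2 fold change -0.72, SE 0.41, edgeR adjusted p = 0.336). The folate carriers Slc19a1 and Folr1 had log2 fold changes of 0.97 (SE 0.29, edgeR adjusted p = 0.0711) and 2.18 (SE 0.81, edgeR adjusted p = 0.136), and for Slc19a1 the 4 Cnp-Cre Jab1fl/fl samples, at 44.6 to 70.4 CPM, were all above the WT samples at 20.3 to 32.7 CPM. In the list for the methionine cycle and transsulfuration, Ahcyl1, a relative of the cycle gene Ahcy, had a log2 fold change of -1.20 (SE 0.46, edgeR adjusted p = 0.143). That of Mat2a, which makes S-adenosylmethionine, was -0.67 (SE 0.26, edgeR adjusted p = 0.160).

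In the double mutant as compared with WT, none of the 53 related genes was called by edgeR, with 3 lower and 5 higher at an unadjusted p below 0.05, beside 12.4% of all genes in either direction, and 3 called by DESeq2, beside 4.87% of all genes. Ptdss1 had 53.5 to 104.3 CPM there, below every WT sample by a small margin, and Slc38a5 had 23.3 to 110.8 CPM, above every WT sample. Between the 2 mutant genotypes none was called by edgeR, 1 was lower at an unadjusted p below 0.05, and DESeq2 called none.

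Most genes of the integrated stress response list were above WT, while of the 10 enzymes 6 were below and 4 above 0 in Cnp-Cre Jab1fl/fl and 5 were on each side in the double mutant. Of the 21 stress response genes 19 passed, and 9 were called higher and none lower in Cnp-Cre Jab1fl/fl, beside 5.19% of all genes called higher. The median log2 fold change was 2.30. In the double mutant 5 were called higher, beside 0.175% of all genes, and the median was 1.85. In each mutant genotype 2 of the 19 were below 0, Vldlr and Slc7a11. For Vldlr the log2 fold changes were -1.37 (SE 0.41) in Cnp-Cre Jab1fl/fl, with no overlap with WT, and -0.72 in the double mutant. For Slc7a11 they were -0.68 (SE 0.40) and -0.48, with overlap. Atf3, a stress-induced transcription factor, had 0 to 1.19 CPM in WT, 88.9 to 180.1 CPM in Cnp-Cre Jab1fl/fl and 40.3 to 216.3 CPM in the double mutant. Trib3, a pseudokinase that restrains ATF4, was at 0 in all WT samples and had 3.13 to 40.5 CPM and 20.7 to 38.2 CPM in the mutant genotypes. Nupr1 had 6.38 to 23.4 CPM in WT against 69.4 to 86.1 CPM in Cnp-Cre Jab1fl/fl cells. Eif4ebp1, a brake on translation, had 1.66 to 6.45 CPM in WT against 23.6 to 67.1 CPM. Mean Asns was 6.54, 41.1 and 54.5 CPM in WT, Cnp-Cre Jab1fl/fl and the double mutant. Mean Atf4 was 93.0, 203.1 and 154.4 CPM, and the gene was not called. Its Cnp-Cre Jab1fl/fl samples, at 140.5 to 262.9 CPM, were all above the WT samples, at 62.4 to 126.4 CPM. Those of the double mutant, at 85.7 to 213.0 CPM, overlapped with WT. Of the enzymes known as ATF4 targets, Phgdh and Psat1 lay below WT and Shmt2, Mthfd2 and Aldh1l2 overlapped with WT in the same samples. The fall of Phgdh and Psat1 while stress genes were higher was the reason for choosing the enzymes. The counts of stress response genes called are therefore a description and no test. The difference between the lists was not tested.

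**Figure D5:**
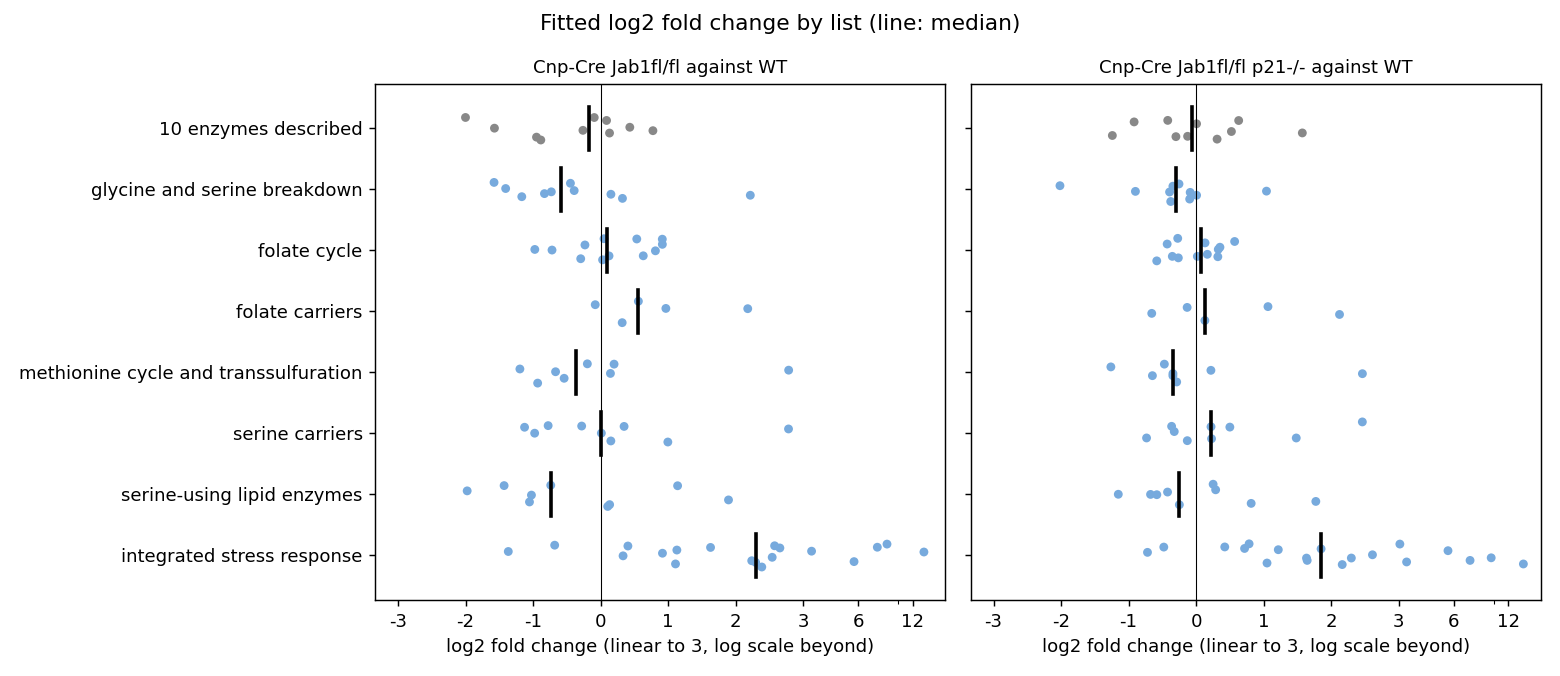
Each point is the edgeR log2 fold change of 1 gene against WT (linear to 3, log scale beyond), by list, with the black line at the list's median. The medians are -0.18 and -0.06 for the 10 enzymes and 2.30 and 1.85 for the integrated stress response in Cnp-Cre Jab1fl/fl and the double mutant. Fitted values of genes at or near 0 in WT, such as Trib3, depend on the fit's prior count and are not bounds.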

How the data were processed

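RNA-Seq libraries were made with SMART-Seq v4 from sorted cells and sequenced as paired ends. According to the submitters' processing notes and the study's methods, the authors used Trimmomatic 0.32 for trimming, STAR 2.5.3a for alignment to GRCm38, and featureCounts with GENCODE basic genes for counting. The strand and multimapping settings are not given in the sources used here, and the kit does not mark strand. The deposited table holds raw counts per gene symbol, not normalized. The study filtered genes at 1 CPM in 4 samples and tested with DESeq2.

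Here the same filter left 17716 of 55376 symbols. The quasi-likelihood test of edgeR 4.0.16 (R 4.3.3) with TMM normalization was run on the 8 samples of each comparison, with Benjamini-Hochberg adjustment over all genes tested and a threshold of 0.05. CPM use TMM factors over all 12 samples. DESeq2 1.42.0, limma-voom (limma 3.58.1), other scaling and filters, marker scores as covariates, a replicate block and leaving out each sample were alternatives. No pair of replicates agreed within sampling noise, so each was kept as a sample. Whether samples came from separate preparations beyond separate brains is not stated, so p-values measure the spread between these samples. Gene positions and exon lengths came from GENCODE M21 on GRCm38, which matched 98.2% of symbols, and promoters from RefSeq.

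The enzymes and lists were chosen with earlier results of these data known. Genes named beside the enzymes were, by rule, the related genes called in any comparison or else the 2 with the smallest p against WT in each list, 4 integrated stress response genes with the smallest p, Cops5, Cdkn1a and Cnp, and the 5 genes most like Psat1 and Phgdh. Asns, Chac1, Atf4, Vldlr, Slc7a11 and Mbp were named after their values were seen. On simulated counts for the comparison of Cnp-Cre Jab1fl/fl with WT, with 200 of 17716 genes changed by 3 on the log2 scale, 64.5% of those were called and 4.44% of calls were false. Smaller changes, such as those of the enzymes, were not simulated, so the share of them that would be called is not known.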

Additional observations from a re-analysis of the deposited data

Results flagged for a closer look

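Each of the following samples lies far from the other 3 of its genotype. The gap to the nearest sample, divided by the range of the group, exceeded the 95% critical value of Dixon's test. Chance flags about 1 in 20 groups, and 7 values were found among the 110 groups examined. Double mutant replicate 1 had 322 CPM of Psat1, with the next at 203.6 CPM, and 67.8 CPM of Mthfd2, with the next at 29.5 CPM. Without it, the log2 fold change of Psat1 in the double mutant against WT was -1.46 instead of -1.24. Ahcyl1 had 760 CPM in WT replicate 3, with the next at 300.4 CPM, and 291 CPM in double mutant replicate 2, with the next at 123.7 CPM. Cnp-Cre Jab1fl/fl replicate 4 had 636 CPM of Cdkn1a, with the next at 397.3 CPM. The microglia markers of double mutant replicate 3 summed to 17749 CPM, with the next at 1978 CPM, and without that sample the log2 fold changes of Psat1 and Phgdh against WT were -1.18 and -0.96. The oligodendrocyte markers of WT replicate 5 summed to 105600 CPM, with the next at 51894 CPM, and without that sample the log2 fold changes in Cnp-Cre Jab1fl/fl were -1.66 for Psat1 and -1.30 for Phgdh.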

How the results depend on the processing

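In Cnp-Cre Jab1fl/fl against WT, 2 enzymes were called, but 1 without a filter, 0 with the microglia score as a covariate, 0 with the replicate block, and 0 to 2 when 1 sample was left out. Of the related genes 3 were called, but 12 with DESeq2, 2 without a filter, 5 at a mean of at least 10 CPM, 0 with the microglia score, 0 with the block, and 0 to 5 when 1 sample was left out. Over all genes 1354 were called, but 2689 with DESeq2, 15 with the microglia score, 79 with the block, and 678 to 1863 without 1 sample. In the double mutant against WT no enzyme and no related gene was called, but 2 and 3 with DESeq2, and 0 to 1 related genes without 1 sample. Over all genes 34 were called, but 862 with DESeq2, 21 without a filter, 140 at a mean of at least 10 CPM, 164 with all 12 samples in the fit, 184 and 18 with the astrocyte and microglia scores, 8 with the block, and 1 to 274 without 1 sample, 274 being without double mutant replicate 1. Between the mutant genotypes 0 genes were called, but 87 with DESeq2, 5 at a mean of at least 10 CPM, 1 with limma-voom and 0 to 2 without 1 sample. The microglia score did not overlap between WT and either mutant genotype, so fits with it cannot tell the score apart from genotype. The cause of the other shifts was not tested.

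Log2 fold changes of several genes turned in direction. Against WT that of Aldh1l2 ran from -2.21 (replicate block) to 1.66 (microglia score) in Cnp-Cre Jab1fl/fl and from -1.57 to 1.85 in the double mutant. In Cnp-Cre Jab1fl/fl those of Shmt1, Shmt2 and Mthfd2 ran from -1.03 to 0.27, from -0.14 to 0.65 and from -0.48 to 0.76, and in the double mutant those of Shmt1 and Mthfd2l from -0.64 to 0.67 and from -0.27 to 0.18. With the microglia score those of Gart and Mat2a became 0.17 and 0.23 against WT for Cnp-Cre Jab1fl/fl, then 0.41 and 0.38 for the double mutant, where that of Serinc5 became 0.11. Leaving out 1 sample gave -0.54 to 0.14 for Aldh1l1 in the double mutant, above 0 without WT replicate 3 and without double mutant replicate 1 (0.018). Between the mutant genotypes Shmt1 came to -0.20 with the astrocyte score, and Mthfd1 to 0.022 with limma-voom, while leaving out 1 sample gave -0.27 to 0.21 for Mthfd1, -0.0014 to 0.91 for Mthfd2 (lowest without double mutant replicate 1) and -0.51 to 1.55 for Aldh1l2 (lowest without double mutant replicate 2). Phgdh and Psat1 stayed below 0 against WT under all 17 alternatives. Samples of the same replicate number did not deviate together (r from -0.188 to 0.0833, and from -0.242 to 0.327 for other numbers), so the number is not taken to pair them, and the pairing of the replicate block says nothing of the size of an effect. The lowest enzymes, Shmt1 and Aldh1l2, had as few as 64 and 74 counts in a sample, and the spread between samples rather than depth limits their comparison.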
